A study of Homo sapiens with 8 samples.

Results

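The genes described here are cancer/testis and germline genes, chosen by name from the array's gene annotation. They are the MAGEA, MAGEB, MAGEC, GAGE, PAGE, XAGE, SSX and SPANX families together with a set of single germline or tumour antigen genes such as PRAME, BRDT, DAZL and SYCP3. The rule found 67 probe sets for 67 genes among the 17709 probe sets that carried 1 gene symbol. CTAG1B and TPTE, which the rule also names, had no probe set under their symbol in the annotation used here and were not analysed. SSX2IP entered only because its symbol begins like the SSX family. It encodes a centrosome and cell junction protein that binds SSX2, lies outside the family, and is kept apart in the counts below where stated. 56 of the 67 genes lie on the X chromosome, and 3 SSX entries (SSX6P, SSX8P and SSX9P) are pseudogenes.

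The samples were cultures of H1299, an established non-small cell lung carcinoma line, and all values are log2 signals from 8 one-colour expression arrays. One experiment compared cells exposed to gallic acid (GA), a plant phenol, for 120 h with untreated cells of the same passage (Ctrl-G). The other compared cells exposed to 5-azacytidine (5azaC), a cytidine analogue that traps DNA methyltransferases, for 120 h with their own untreated cells (Ctrl-Z). Each of the 4 groups held 2 arrays described as biological replicates, all from 1 cell line. The limma p-values rest on a spread pooled over both experiments and drawn towards that of all probe sets. They are not a measure of the 2 cultures of a group alone. The dose was 10 in both treatments, but the sample labels give it in mM and the methods in μM, and the arrays cannot settle which unit is right. In a whole culture, a change in the number of cells that express a gene and a change in RNA per cell cannot be told apart.

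Cancer/testis genes are normally transcribed in male germ cells, and their proteins serve as tumour antigens because they reappear in many cancers, lung cancer among them. Most of them lie on the X chromosome in clusters of near-identical copies. In somatic cells their promoters are held silent by methylation of CpG dinucleotides, and DNA methyltransferase inhibitors are a standard means of switching them on. Members differ in role. MAGE proteins bind RING-type ubiquitin ligases, PRAME serves as a substrate receptor of a cullin ligase, SSX proteins act as transcriptional repressors, SPANX proteins are found in the sperm nucleus, SYCP1 and SYCP3 build the synaptonemal complex of meiosis, and DAZL and DDX4 are RNA-binding proteins of germ cells.

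To show the regulatory sequence of genes that were on or off in these cells, 8 promoter windows are printed from the RefSeq promoter table (GRCh38.p14). Each runs from 250 bases before to 50 bases after the annotated start of the gene, is written 5′ to 3′ on the gene's strand, and has every CpG dinucleotide in capitals. Where a gene has several annotated starts, the window with the most CpG is shown. The first 5 belong to genes whose probe sets were above background on every array, and the remaining 3 (MAGEA9, SSX5 and DAZL) to genes that stayed below it and were chosen after their values were seen.
GAGE12G (chrX:49570147-49570446, plus strand, 13 CpG): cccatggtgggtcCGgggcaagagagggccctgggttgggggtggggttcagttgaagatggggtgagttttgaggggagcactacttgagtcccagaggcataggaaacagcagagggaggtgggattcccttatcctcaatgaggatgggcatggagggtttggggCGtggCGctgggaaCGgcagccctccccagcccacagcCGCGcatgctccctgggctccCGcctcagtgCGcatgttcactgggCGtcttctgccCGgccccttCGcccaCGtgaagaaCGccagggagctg
MAGEA4 (chrX:151916675-151916974, plus strand, 15 CpG): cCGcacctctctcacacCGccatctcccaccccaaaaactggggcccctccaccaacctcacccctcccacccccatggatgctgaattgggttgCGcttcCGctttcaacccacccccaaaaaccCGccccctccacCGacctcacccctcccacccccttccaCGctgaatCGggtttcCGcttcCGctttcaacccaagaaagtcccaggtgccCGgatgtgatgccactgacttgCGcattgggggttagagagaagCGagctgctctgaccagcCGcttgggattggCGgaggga
MAGEA3 (chrX:152698544-152698843, plus strand, 19 CpG): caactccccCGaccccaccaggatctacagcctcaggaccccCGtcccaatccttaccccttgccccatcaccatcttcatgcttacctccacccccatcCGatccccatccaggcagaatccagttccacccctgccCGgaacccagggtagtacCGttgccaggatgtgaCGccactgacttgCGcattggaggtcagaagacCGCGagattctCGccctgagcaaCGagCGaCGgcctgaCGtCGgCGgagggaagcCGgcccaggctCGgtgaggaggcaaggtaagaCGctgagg
XAGE1B (chrX:52516963-52517262, minus strand, 17 CpG): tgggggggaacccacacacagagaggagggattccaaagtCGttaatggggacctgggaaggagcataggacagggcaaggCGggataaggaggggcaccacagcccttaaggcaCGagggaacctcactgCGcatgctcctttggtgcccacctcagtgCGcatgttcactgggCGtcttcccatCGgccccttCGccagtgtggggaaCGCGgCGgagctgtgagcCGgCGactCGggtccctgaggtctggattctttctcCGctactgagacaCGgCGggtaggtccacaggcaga
PRAME (chr22:22559216-22559515, minus strand, 13 CpG): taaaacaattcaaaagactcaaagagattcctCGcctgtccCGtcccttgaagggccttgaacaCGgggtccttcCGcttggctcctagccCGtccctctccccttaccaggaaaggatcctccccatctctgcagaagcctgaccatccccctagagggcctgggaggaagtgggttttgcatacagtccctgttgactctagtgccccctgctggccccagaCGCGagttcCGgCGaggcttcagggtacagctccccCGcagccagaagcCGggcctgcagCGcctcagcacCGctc
MAGEA9 (chrX:149781680-149781979, plus strand, 10 CpG): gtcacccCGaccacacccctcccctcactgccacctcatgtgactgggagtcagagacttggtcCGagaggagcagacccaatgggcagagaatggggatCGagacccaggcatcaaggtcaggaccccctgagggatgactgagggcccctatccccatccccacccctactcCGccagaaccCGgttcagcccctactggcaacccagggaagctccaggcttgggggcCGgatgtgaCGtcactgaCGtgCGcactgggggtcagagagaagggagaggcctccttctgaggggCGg
SSX5 (chrX:48196746-48197045, minus strand, 9 CpG): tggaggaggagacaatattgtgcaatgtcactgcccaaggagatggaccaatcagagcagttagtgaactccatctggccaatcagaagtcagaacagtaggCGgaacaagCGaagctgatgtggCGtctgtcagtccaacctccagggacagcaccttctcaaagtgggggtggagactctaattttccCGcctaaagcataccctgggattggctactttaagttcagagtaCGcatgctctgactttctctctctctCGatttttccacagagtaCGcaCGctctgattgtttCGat
DAZL (chr3:16605374-16605673, minus strand, 33 CpG): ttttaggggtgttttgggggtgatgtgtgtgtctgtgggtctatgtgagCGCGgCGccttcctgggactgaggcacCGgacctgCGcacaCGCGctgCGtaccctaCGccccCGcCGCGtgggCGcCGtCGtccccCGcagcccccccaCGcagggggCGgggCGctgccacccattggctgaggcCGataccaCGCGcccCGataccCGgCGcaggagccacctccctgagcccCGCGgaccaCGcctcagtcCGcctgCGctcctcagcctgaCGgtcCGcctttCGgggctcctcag

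A member was called above background in a group where its signal exceeded the 95th percentile of the 612 negative-control probe sets of the same array on both arrays of that group. That percentile lay between 6.31 and 7.23 on the 8 arrays, and 39.9 to 46.1% of all 21448 non-control probe sets exceeded it on an array. The median signal was 5.60 to 5.63 in the GA experiment and 5.85 to 5.87 in the 5azaC experiment. Markers of the labelled tissue were seen only in part. All 4 mesenchymal markers tested (VIM, CDH2, ZEB1 and FN1) were above background. Of 5 simple epithelium markers the keratins KRT8 and KRT18 were above it, and KRT19, EPCAM and CDH1 were below it on every array. None of the 6 lung epithelium markers, including NKX2-1 and the surfactant genes, was above background in any group. Of 9 testis cell markers measured, SOX9, PRM2 and STAR were above background in at least 1 group, and none of the blood, fibroblast and endothelial markers was in any group.

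Of the 67 members, 17 were above background on all 8 arrays, 48 on none, and 2 (SPANXA1 and SPANXC) on some arrays. By group, 17 members were above background after GA, 18 in Ctrl-G, 17 after 5azaC and 17 in Ctrl-Z, where 40.1%, 42.8%, 39.4% and 42.1% of all probe sets were. The pattern followed the families. All 5 GAGE probe sets and 6 of 10 MAGEA probe sets were above background on every array, with 1 of 4 XAGE probe sets (XAGE1B) and 4 of the 12 single genes (PRAME, BRDT, DPEP3 and TKTL1). No member of MAGEB (8 probe sets), MAGEC (3), PAGE (6) or the SSX family itself (8) was above background on any array. SSX2IP was the remaining gene above it throughout. These calls are a description and were not tested. With the 99th percentile as the limit instead, 11 members were above background after GA and 12 in each of the other groups. MAGEA8, BRDT, DPEP3, TKTL1 and SSX2IP were then above background in no group, and MAGEA1 was not above it after GA. Calling these genes on therefore depends on the limit. With the 90th percentile, SPANXA1 and SPANXC were above it in every group and PAGE2B after 5azaC and in Ctrl-Z, which made 19 members after GA, 19 in Ctrl-G, 20 after 5azaC and 20 in Ctrl-Z.

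The GAGE family consists of tandem copies on the X chromosome whose small acidic proteins are presented as antigens on tumour cells. GAGE12G read 14.96 and 15.11 in Ctrl-G, 14.89 and 14.91 after GA, 15.51 and 15.21 in Ctrl-Z, and 15.21 and 15.09 after 5azaC. GAGE10 read 13.51 and 13.93, 13.51 and 13.51, 14.40 and 14.05, and 13.83 and 13.94 in the same order. All 5 GAGE probe sets cleared the background percentile by at least 6.62 log2 units on every array. The promoter windows of GAGE1, GAGE2A, GAGE12G and GAGE13 are close to identical. Aligned without gaps, the window printed for GAGE12G matched those of GAGE1 and GAGE2A at 100.0% of aligned bases. It matched that of GAGE13 at 99.7% and that of GAGE10 at 67.1%. An inserted or deleted base lowers such a value, so 67.1% does not measure how far GAGE10 diverged. RNA from tandem copies can bind one another's probes, so the 5 signals cannot be assigned to single copies with certainty.

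Among the MAGEA genes, MAGEA1, MAGEA2, MAGEA3, MAGEA4, MAGEA6 and MAGEA8 were on, and MAGEA9, MAGEA9B, MAGEA10 and MAGEA11 were below background on every array. MAGEA4 read 12.64 and 12.62 in Ctrl-G, 12.69 and 12.67 after GA, 13.50 and 13.39 in Ctrl-Z, and 13.24 and 13.07 after 5azaC. MAGEA1, whose product is recognised by T cells on melanoma, ran from 9.35 to 10.48 over the 8 arrays. MAGEA2 ran from 10.42 to 11.25. MAGEA8 came closest to background, with signals of 7.35 to 8.19 and a smallest margin of 0.35 over the percentile of its array. MAGEA3 and MAGEA6 share an identical promoter window (300 of 300 bases), and MAGEA3 ran from 10.08 to 11.33 and MAGEA6 from 10.91 to 11.90.

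XAGE1B, a GAGE-related antigen gene, read 11.52 and 12.31 in Ctrl-G, 12.08 and 11.97 after GA, 13.13 and 13.16 in Ctrl-Z, and 12.67 and 13.01 after 5azaC. PRAME, on chromosome 22, read 12.21 and 12.51, 12.30 and 12.27, 13.04 and 13.04, and 12.78 and 12.64 in the same order. For both genes the Ctrl-Z arrays were above both Ctrl-G arrays. The same held for 11 of the 17 members that were on and for 5803 of 9617 probe sets above background in a group. BRDT, the testis bromodomain protein that reads acetylated histones, ran from 7.86 to 8.47. DPEP3, a membrane dipeptidase expressed in testis, ran from 8.48 to 9.24, and TKTL1, a transketolase-like gene, from 7.18 to 7.96.

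**Figure D1:**
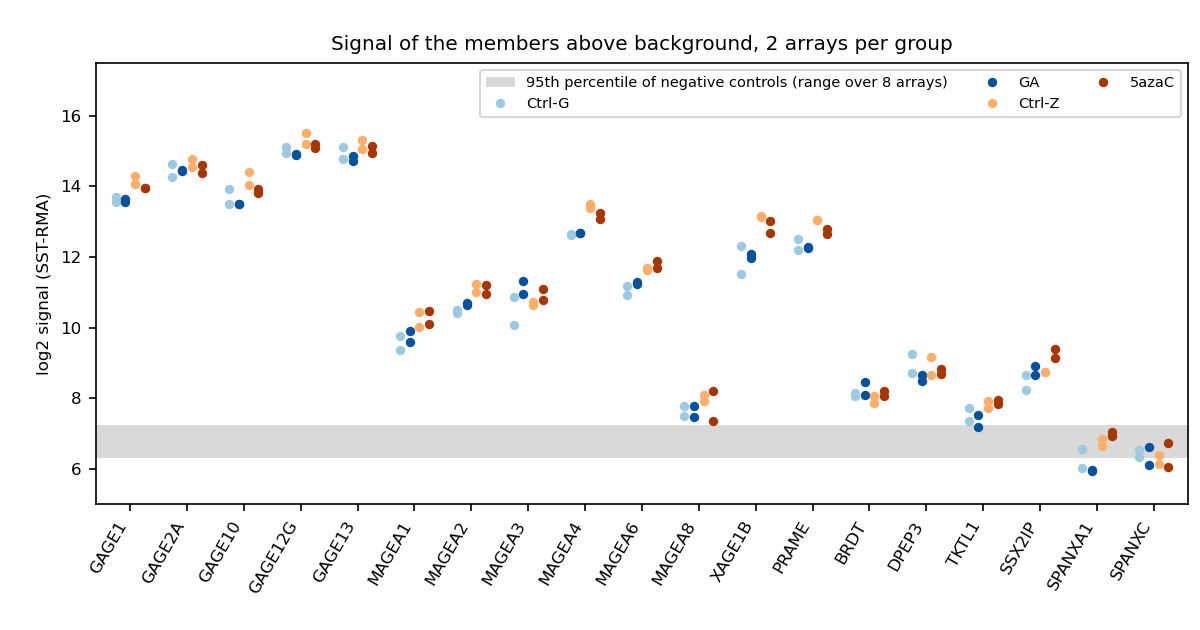
Each point is the log2 signal of 1 array for the 17 members above background on all 8 arrays and for SPANXA1 and SPANXC, coloured by group with 2 arrays a group. The grey band spans the 95th percentiles of the negative controls (6.31 to 7.23), the 5 GAGE probe sets lie at 13.51 or higher on every array, and heights of different genes are not comparable because each probe set has its own response.

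SPANXA1 and SPANXC straddled the limit. SPANXC read 6.32 and 6.54 in Ctrl-G, which cleared the percentile by 0.02 at most, and 6.10 and 6.61 after GA, below it on both arrays. SPANXA1 read 6.57 and 6.03 in Ctrl-G, 5.93 and 5.96 after GA, 6.63 and 6.85 in Ctrl-Z, and 6.94 and 7.05 after 5azaC. Their windows are 98.3% identical, and that of SPANXA1 is identical to that of SPANXA2, which stayed below background. No change was read from either gene at this margin.

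The 48 members below background on all arrays had signals between 1.96 and 6.87. Their median group mean was 3.41 in Ctrl-G, 3.43 after GA, 3.49 in Ctrl-Z and 3.72 after 5azaC. The 8 single genes among them were CTAG2 (a tumour antigen), DAZL, DDX4, DDX43 (an RNA helicase), MAEL (a piRNA pathway protein), SYCP1, SYCP3 and TEX101 (a germ cell surface protein). The highest mean signals among the 48 were those of DDX43, PAGE2B and SPANXD. DDX43 ran from 4.88 to 5.95. PAGE2B read 5.03 and 3.70 in Ctrl-G, 4.58 and 4.50 after GA, 5.84 and 5.71 in Ctrl-Z, and 6.09 and 6.87 after 5azaC, with a margin of -0.36 over the percentile on its nearest array.

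The first comparison asked which of these genes changed when the cells were grown in GA. None passed the test. Treated arrays were compared with the untreated arrays of the same replicate number by limma across all 21448 probe sets, with Benjamini-Hochberg adjustment. At an adjusted p under 0.05, 0 of 67 members were called, and 0.322% of all probe sets were (17 higher and 52 lower). At an unadjusted p under 0.05, limma picked 2 members (XAGE5 higher and MAGEA9B lower, both below background on every array), against 15.8% of all probe sets.

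Among the 17 members that were on, the log2 fold change after GA ran from -0.42 (DPEP3) to 0.67 (MAGEA3). Without SSX2IP, 8 were negative and 8 positive, with a median of -0.01 beside 0.02 over all probe sets. GAGE probe sets lay between -0.21 and 0.00, PRAME at -0.08 ± 0.21 (SE) and MAGEA4 at 0.05 ± 0.20. For 16 of the 17 the 95% interval stayed within a 2-fold change in either direction, so a larger effect of GA on those signals lies outside their intervals.

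MAGEA3 was the exception. It read 10.08 and 10.86 in Ctrl-G and 11.33 and 10.96 after GA. The groups did not overlap, but the second pair lay close together. The log2 fold change was 0.67 (95% interval -0.01 to 1.35, 1.59-fold) with a limma adjusted p of 0.319. MAGEA6, which shares its promoter window, read 10.91 and 11.18 in Ctrl-G and 11.29 and 11.23 after GA, a log2 fold change of 0.21 with an adjusted p of 0.704. Groups did not overlap for 4 members that were higher after GA (MAGEA2, MAGEA3, MAGEA4 and MAGEA6) and 2 that were lower (GAGE12G and DPEP3) among these 16, where the shares among all probe sets above background in a group were 30.6% and 28.1%.

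The second comparison asked the same of 5azaC. Again no member passed: 0 of 67 had an adjusted p under 0.05 by limma, and 1.51% of all probe sets did (111 higher and 212 lower). At an unadjusted p under 0.05, limma picked 9 members, against 20.3% of all probe sets. Of these 8 were higher and 1 (MAGEB10) was lower, against 10.7% and 9.61%. All of them except SSX2IP were below background on every array.

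Of the 16 family and single genes that were on, 11 had a negative log2 fold change after 5azaC, as did 51.9% of all probe sets above background, and their median was -0.16 beside 0.05 over all probe sets and -0.02 over those above background. All 5 GAGE probe sets were negative, between -0.34 and -0.14. For GAGE1, GAGE10, MAGEA4, XAGE1B and PRAME both 5azaC arrays lay under both Ctrl-Z arrays, 5 of 16 where 32.7% of probe sets above background did so. For MAGEA3 and BRDT both lay above, 2 of 16 where 30.6% did so. PRAME had a log2 fold change of -0.33 (95% interval -0.82 to 0.16, adjusted p 0.433) and MAGEA4 of -0.29 (-0.76 to 0.18, adjusted p 0.477). MAGEA3 was at 0.26 (-0.42 to 0.94). For each of the 16 the interval excluded a 2-fold change in either direction.

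SSX2IP, not a germline gene, was the single member above background with an unadjusted p under 0.05. It read 8.73 and 8.74 in Ctrl-Z and 9.38 and 9.15 after 5azaC, a log2 fold change of 0.53 (0.04 to 1.01) with an adjusted p of 0.213. After GA it read 8.91 and 8.66 against 8.64 and 8.23, a log2 fold change of 0.35.

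**Figure D2:**
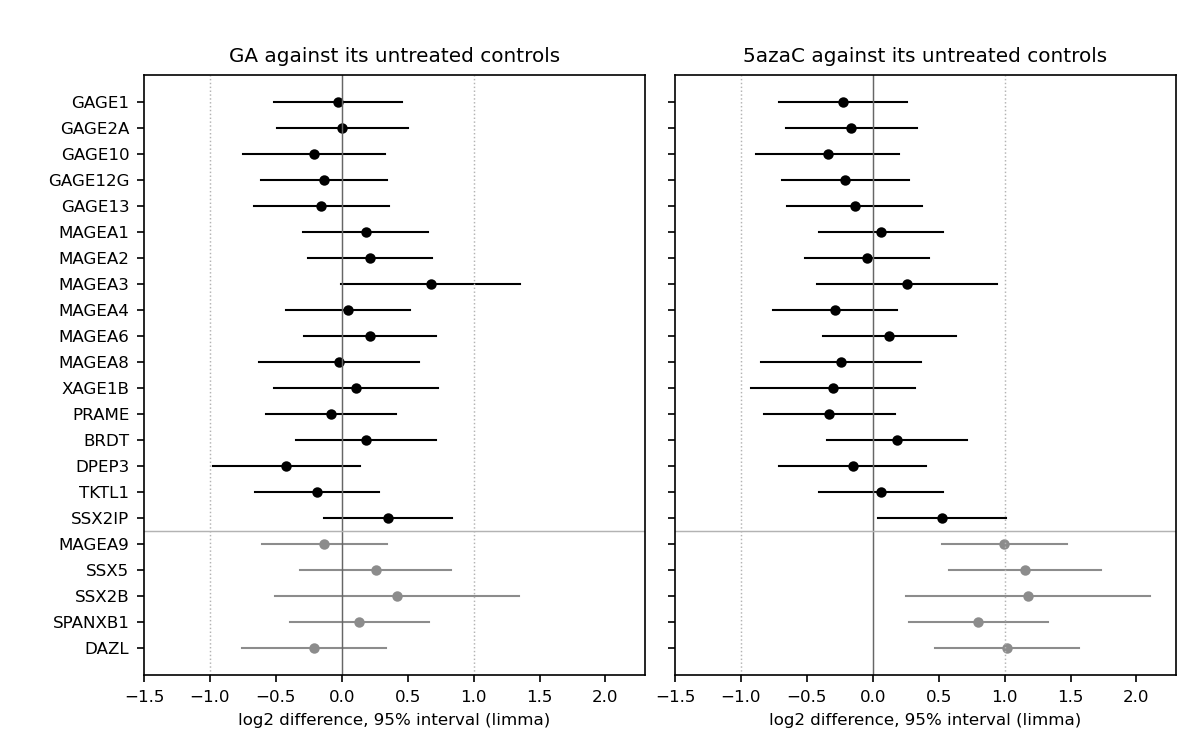
Log2 differences of treated minus untreated arrays with 95% intervals from limma (2 treated and 2 untreated arrays a treatment) for GA and 5azaC, in black for members above background on all 8 arrays and in grey for 5 members below it, for which no fold change is read. Every black interval except that of SSX2IP after 5azaC includes 0, and the grey 5azaC values lie between 0.80 and 1.18.

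None of the members that were off was switched on. A switch was counted where a probe set was below background on both untreated arrays and above it on both treated arrays. This held for 0 of 48 members after GA and 0 of 49 after 5azaC, where 0.265% and 0.147% of all probe sets that were below background met it. In the other direction, 1 of 18 members (SPANXC) went from above to below after GA and 0 of 17 after 5azaC, where 3.63% and 3.48% of all probe sets did. With so few probe sets switched on at all, a member's absence from them is no property of the family.

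Below background, 5 members stood out after 5azaC and were picked after their values were seen. MAGEA9 read 3.35 and 3.01 in Ctrl-Z and 4.28 and 4.08 after 5azaC, a log2 difference of 0.998 with an adjusted p of 0.0618 by limma. SSX5 read 3.74 and 3.81, then 4.56 and 5.30, a difference of 1.15 with an adjusted p of 0.0671. DAZL read 2.72 and 2.53, then 3.44 and 3.85, a difference of 1.02 with an adjusted p of 0.0787. In each of these genes the groups did not overlap, and the margin over the background percentile was negative on every array, -1.93 at its nearest for SSX5.

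SSX2B read 3.56 and 3.12 in Ctrl-Z and 4.96 and 4.07 after 5azaC (difference 1.18, adjusted p 0.160), and SPANXB1 read 3.60 and 4.13, then 4.51 and 4.82 (difference 0.80, adjusted p 0.113). After GA the differences of the 5 genes were between -0.21 and 0.42. Because both groups were below background, these signals cannot be read as transcription that changed and no fold change is given. The wider background moved as well. Among the 11135 probe sets below background on all arrays, 9.49% were higher after 5azaC at an unadjusted p under 0.05 and 3.87% lower, against 7 and 1 of the 48 members. Groups did not overlap upward for 26.3% of them and for 13 of the 48 members, and 1.44% of them and 3 members (SSX2B, SSX5 and DAZL) had a log2 difference of 1 or more. The background percentile of the 5azaC arrays was 6.998 and 7.23, and that of the Ctrl-Z arrays 6.97 and 6.40. What part this had in the values was not tested.

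Whether these differences were called depended on the test. SSX5 and MAGEA9 passed an adjusted p under 0.05 without the pair term (0.0382 and 0.0306) and with all 4 untreated arrays as controls (0.0263 and 0.0399), and DAZL passed without the pair term (0.0329). MAGEA9 and MAGEA9B have identical promoter windows, and MAGEA9B read 3.99 and 4.03 in Ctrl-Z and 4.27 and 4.59 after 5azaC (difference 0.42, adjusted p 0.318).

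**Figure D3:**
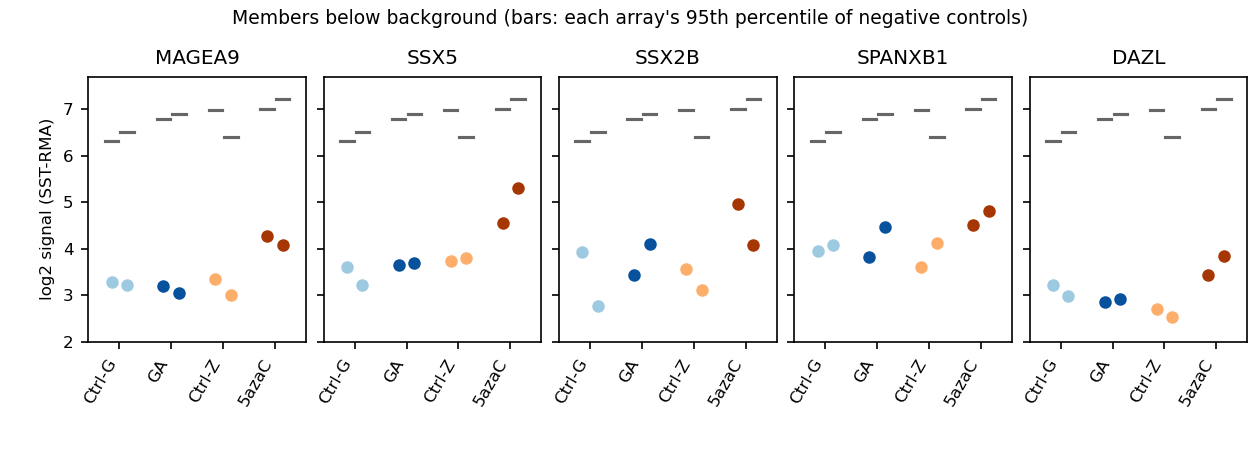
Log2 signal of each array for 5 members below background (MAGEA9, SSX5, SSX2B, SPANXB1 and DAZL), 2 arrays a group, with the 95th percentile of the negative controls of the same array drawn as a bar. Both 5azaC points lie above both Ctrl-Z points in every panel, and all points lie under their bars.

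The effects of the treatments were compared with each other in the same fit. No member and no other probe set had an adjusted p under 0.05 for 5azaC minus GA (0.0% of 21448). At an unadjusted p under 0.05, limma picked 8 members, against 6.67% of all probe sets, and all 8 were below background on every array. MAGEA3 had a difference of -0.41 (95% interval -1.38 to 0.55) and XAGE1B of -0.41 (-1.29 to 0.47). A difference of treatment response was therefore not detectable for the genes that were on, whose intervals had a median half-width of 0.70 log2 units.

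The untreated cells of the experiments were then compared with each other. Ctrl-Z minus Ctrl-G was tested in a fit of the 4 groups without pairs, and passage, culture time and array run cannot be told apart from it. By limma 8 of 67 members were called (6 higher and 2 lower in Ctrl-Z), where 19.3% of all probe sets were (15.2% higher and 4.07% lower). The signals as a whole were shifted: the median difference over all probe sets was 0.18, and 0.37 over those above background. XAGE1B was 1.23 higher in Ctrl-Z (95% interval 0.63 to 1.83, adjusted p 0.0134), MAGEA4 0.81 (0.37 to 1.24, adjusted p 0.0196), PRAME 0.68 (0.23 to 1.13, adjusted p 0.0408) and MAGEA2 0.67 (0.22 to 1.13, adjusted p 0.0435).

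Of the 17 members that were on, 15 were positive in this comparison. Without SSX2IP the median was 0.44, close to the shift of the expressed probe sets, and the 2 negative values were those of BRDT (-0.14) and DPEP3 (-0.07). Relative to the median of probe sets above background, XAGE1B differed by 0.86, MAGEA4 by 0.44, and PRAME and MAGEA2 by 0.31 each. Scaling changed most of the calls. After each array was centred on its median 5 members passed, 1 higher (XAGE1B, 0.99, adjusted p 0.0364) and 4 lower (MAGEA9B, SPANXD, SPANXN1 and SPANXN2). After quantile normalization SPANXN2 alone passed. The other called members, MAGEC2, PAGE2B, SPANXN1 and SPANXN2, were below background in both groups. Leaving out either Ctrl-Z array left no member called, and leaving out a Ctrl-G array left 1 or 2. Each of these fits rests on a lone array whose spread is taken from the other groups, so the counts are not directly comparable with that of the full fit.

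**Figure D4:**
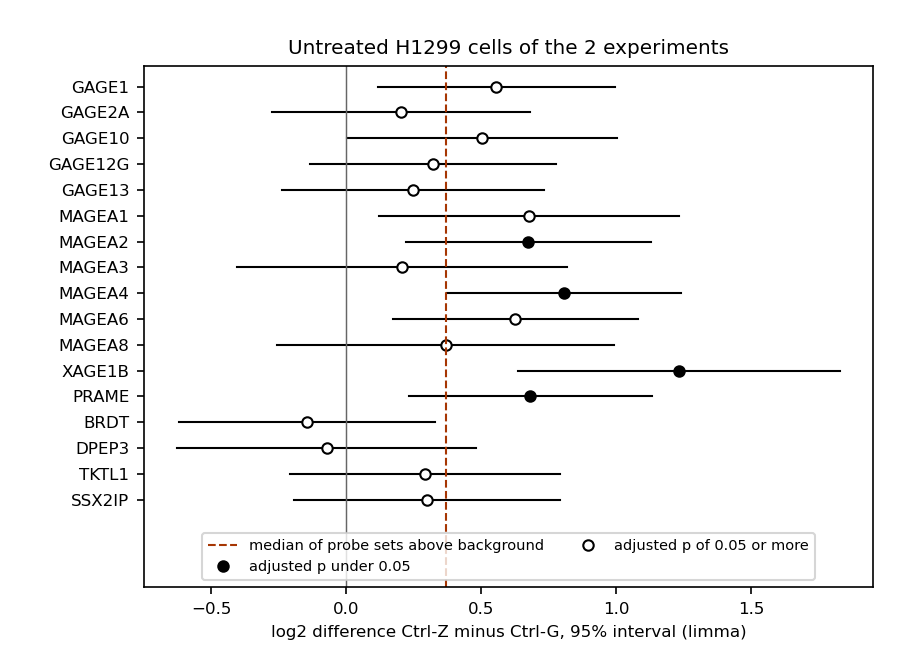
Log2 difference of Ctrl-Z minus Ctrl-G with 95% intervals from limma (2 arrays a group) for the 17 members above background on all 8 arrays. Filled points have an adjusted p under 0.05, the dashed line marks the median of probe sets above background (0.37), and XAGE1B at 1.23 is the member whose interval lies farthest to its right.

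The promoter windows were compared with the signals as a description. RefSeq windows were found for 58 of the 67 members, and for 16 of the 17 that were on. For members and for all genes alike, the window with the most CpG was used where a gene had several. A gene with more annotated starts therefore had more chances of a high count. By that rule the genes of the table had a median of 16 CpG (quartiles 4 and 30). Members that were on held 11 to 32 (median 16), and members below background 1 to 60 (median 10). On the X chromosome alone the values were 11 to 19 (median 14) for 12 members that were on and 1 to 21 (median 9) for 33 that were not. The 7 autosomal members below background had a median of 21. MAEL (60 CpG) and DAZL (33) had the most, and both were off. Copies of a family share sequence, so these windows are not independent of each other.

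Short motifs were searched on both strands of these same windows. They were TCCCGC, the core of sites bound by E2F6, CACGTG, the E-box bound by MAX with MGA, and CCGGAA, the core of ETS sites, and none of them contains another. E2F6, MGA and MAX take part in silencing germline genes, and ETS sites are known in MAGE promoters. TCCCGC was present in 7 of 16 windows of members that were on, in 9 of 40 of those below background, and in 28.3% of all genes. Those 7 were the 5 GAGE copies with XAGE1B and SSX2IP. CACGTG was present in 7 of 16 and 5 of 40, against 7.53% of all genes, and 5 of the 7 were the GAGE copies with BRDT and DPEP3 as the others. CCGGAA was present in 4 of 16 (MAGEA3, MAGEA6, PRAME and DPEP3) and 3 of 40, against 18.3% of all genes. A match shows only that these letters occur in the window.

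**Figure D5:**
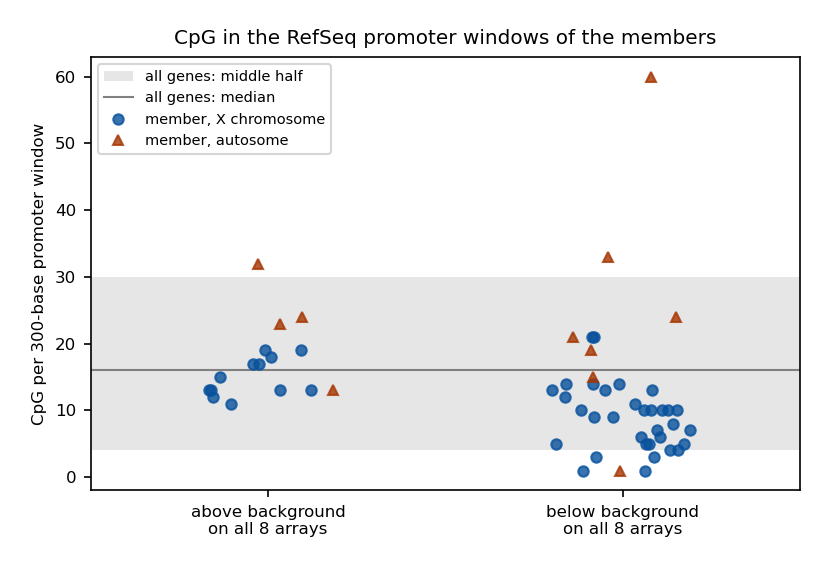
Points show the CpG count of each gene's RefSeq promoter window, the one with the most CpG where there were several. They cover 16 members above background on all 8 arrays and 40 below it, with X-linked genes as circles and autosomal genes as triangles. The band spans the quartiles of all genes (4 to 30) around their median of 16, and X-linked members that were on lie between 11 and 19.

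Related genes were read from 6 lists. A few members are in them: TEX101 among meiosis genes, MAEL and DDX4 among piRNA genes, and DAZL among germ cell genes. Some genes, such as HORMAD1, are in more than 1 list, so the lists are not separate. The counts of every list stand beside 9617 of all 21448 probe sets above background in at least 1 group. Of all probe sets 0.322% were called after GA and 1.51% after 5azaC. In the type II MAGE genes, broadly expressed relatives, 4 of 10 measured genes were above background in at least 1 group and none was called after GA or 5azaC. MAGED2 ran from 8.74 to 9.94, MAGED1 from 8.58 to 9.21 and MAGEF1 from 6.95 to 8.999. Of 54 other cancer/testis genes 21 were above background and none was called after either treatment. SPAG9, a broadly expressed scaffold protein of JNK signalling, ran from 13.54 to 14.44, ODF2, a centrosome and sperm tail protein, from 12.30 to 13.85, and HORMAD1, which marks unsynapsed chromosome axes in meiosis, from 12.33 to 13.58. The median log2 fold change of that list was 0.15 after GA and 0.23 after 5azaC, beside 0.02 and 0.05 over all probe sets.

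Meiotic and piRNA genes were on in part. Among 34 meiosis genes 9 were above background (SYCP2, HORMAD1, DMC1, IHO1, STAG3, SMC1B, MND1, PSMC3IP and RNF212) and none was called after either treatment. SYCP2, a lateral element protein of the synaptonemal complex, ran from 10.16 to 10.97 while its partner SYCP3 and the transverse filament gene SYCP1 were below background. RNF212, which stabilises crossover sites, ran from 10.33 to 10.95. Of 22 piRNA pathway genes 5 were above background and none was called after either treatment: TDRD12 ran from 13.48 to 13.91, GTSF1 from 11.71 to 13.17 and TDRKH from 8.37 to 10.23, next to TDRD9 and HENMT1. MAEL and DDX4 of the same pathway were below it. The median log2 fold changes were 0.00 after GA and 0.14 after 5azaC for meiosis genes, and 0.11 and 0.13 for piRNA genes.

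Of 29 germ cell and oocyte genes only SOHLH2 (10.66 to 11.35), LIN28B (8.71 to 10.25) and ZP3 (8.58 to 10.02) were above background, and none was called after either treatment. These encode a germ cell transcription factor, a let-7 binding protein and a coat protein of the oocyte. Of 31 known silencers and activators of germline genes 26 were above background and 1 was called after 5azaC, DNMT3B, a de novo DNA methyltransferase. It read 5.28 and 5.13 in Ctrl-Z and 6.39 and 6.44 after 5azaC (difference 1.21, adjusted p 0.0457), below background on all 8 arrays, so no change was read. Both 5azaC arrays exceeded the 90th percentile of their negative controls (5.83 and 5.84), and neither Ctrl-Z array did (5.46 and 5.53). DNMT1, the maintenance methyltransferase that 5azaC traps, read 8.73 and 8.73 in Ctrl-Z and 9.10 and 8.80 after 5azaC (log2 fold change 0.22, adjusted p 0.622). The medians of this list were 0.08 after GA and -0.01 after 5azaC. Between the untreated groups 2 of 10 type II MAGE genes, 11 of 54 other cancer/testis genes and 6 of 34 meiosis genes were called. So were 3 of 22 piRNA genes (TDRKH, PLD6 and GTSF1), 4 of 29 germ cell genes and 5 of 31 silencers and activators. Over all probe sets 19.3% were called in that comparison.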

How the data were processed

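The authors deposited log2 signals of 8 Clariom S arrays, made with Affymetrix Expression Console 1.4 by SST-RMA, a robust multi-array average with correction for signal space and GC content. The genome build was not given in the sources used here. The deposited table held 24351 probe sets, of which 2903 were controls. Of the other 21448, 17709 had 1 gene symbol in the platform annotation (17687 symbols) and 3739 were unnamed here.

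Groups came from the sample titles. Limma 3.58.1 in R 4.3.3 was fitted on the deposited log2 values of all 8 arrays with the 4 pairs of treated and untreated arrays as a block, after the paired test of the methods, and gave 2 residual degrees of freedom with a prior of 5.56. The fit of 4 groups without pairs had 4 and 6.53. All adjusted p-values are Benjamini-Hochberg values over 21448 probe sets at a threshold of 0.05, two-sided. The fits were tested on simulated data.

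Named were all members above background in a group, any called member, up to 3 members below background by mean signal, and in each list up to 4 called genes or else up to 3 by mean signal. Any other gene named was chosen after its values were seen. The members and lists were chosen with earlier results of these data known. Alternatives changed the pair block, arrays and controls in the fit, normalization, filters on dim probe sets, the variance model, the test, the background percentile and the arrays left out. Array intensities carry no read depth, and precision is limited by having 2 arrays a group. Promoter windows came from RefSeq (GRCh38.p14) and were matched by gene identifier only. Protein sequences were not used here.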

Additional observations from a re-analysis of the deposited data

How the results depend on the processing

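No member was called after GA under any of the alternatives run. After 5azaC the 0 members called became 2 with all untreated arrays as controls (MAGEA9 and SSX5), 3 with no replicate block and 3 with a trended, robust variance (MAGEA9, SSX5 and DAZL both times), and 0 to 1 when an array pair was left out (MAGEB5 without replicate 2 of 5azaC, whose arrays read 5.12 and 3.56), all below background. The log2 fold changes of the 17 members that were on stayed uncalled throughout. Over all named members, for GA, 5azaC and Ctrl-Z minus Ctrl-G, 23 of 585 values changed sign. Many alternatives keep the same mean difference, so no sign could change in them and the share is no measure of stability. After GA, XAGE1B ran from -0.51 to 0.57 over the alternatives and DPEP3 from -0.59 to -0.25.

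Over all probe sets the 69 called after GA became 620 with only its 4 arrays, 151 with all untreated arrays, 425 with no replicate block, 1333 among probe sets above background, 9 by the methods' paired t-test with Benjamini-Hochberg adjustment, 0 by an unpaired t-test with it, 1210 with a trended, robust variance, 408 without the dimmest probe sets, and 0 to 620 when a pair was left out. At the methods' own criterion, an unadjusted p under 0.05 with at least a 2-fold change, the paired t-test picked 160 probe sets after GA and 277 after 5azaC, and no member in either. The 323 called after 5azaC became 22, 780, 889, 1851, 3, 0, 1838 and 937 in the same order, and 22 to 257 when a pair was left out. Same-numbered arrays did not deviate together (correlation -0.02 for GA and 0.03 for 5azaC), and 2 pairs cannot show pairing. The block follows the methods. For 5azaC minus GA, 0 to 3 probe sets and no member were called when a pair was left out.

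For Ctrl-Z minus Ctrl-G, the 4134 probe sets called became 2220 after quantile normalization and 909 to 1861 when an array was left out. The split of 3260 higher and 874 lower became 1459 and 1867 after median centring, and 1042 and 1178 after quantile normalization. The 8 members called became 5 after median centring, 1 after quantile normalization and 0 to 2 when an array was left out. With the 99th percentile of negative controls, 11 instead of 17 members were above background after GA.

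With 2 arrays a group, effects under about 2-fold were often not detectable, and many larger ones were not called either. After GA 581 probe sets differed 2-fold or more and 69 of any size were called. After 5azaC these were 842 and 323. Signals under the negative-control percentile were not read as transcription. Lying under it does not show that a gene called off had no transcript. The deposited arrays were normalized before their medians were compared, and the offset between the experiments was not removed from the reported values. The causes of these shifts were not tested.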

Other observations

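The CT45A copies, another X-linked cancer/testis family outside the chosen names, were picked here after their values were seen. CT45A1, CT45A2, CT45A3, CT45A5 and CT45A6 were above background on all 8 arrays, and in each of them both GA arrays lay above both Ctrl-G arrays. The same held for 30.6% of all probe sets above background in a group. CT45A5 read 8.73 and 9.04 in Ctrl-G, 9.67 and 9.99 after GA, 9.45 and 9.67 in Ctrl-Z, and 10.56 and 10.15 after 5azaC. Its log2 fold change was 0.95 after GA (95% interval 0.41 to 1.49) and 0.79 after 5azaC (0.25 to 1.33), with limma adjusted p-values of 0.122 and 0.121. Over the 5 copies the log2 fold change ran from 0.56 to 0.97 after GA and from 0.65 to 0.82 after 5azaC, and none passed the adjusted test. Near-identical copies can bind one another's probes, so they are not 5 separate measurements.

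TMEFF1, a transmembrane protein gene of the same list, read 7.93 and 8.28 in Ctrl-Z and 9.58 and 9.16 after 5azaC, a log2 fold change of 1.26 (0.63 to 1.90) with an adjusted p of 0.0672. SPA17, a sperm surface protein gene, read 9.56 and 10.41 in Ctrl-G and 11.13 and 11.06 after GA, a log2 fold change of 1.11 (0.50 to 1.72) with an adjusted p of 0.113. In the 5azaC experiment SPA17 read 10.92 and 11.02 without treatment, close to its values after GA.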
